A study of Mus musculus with 4 samples.

Results

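The piRNA pathway and transposon silencing genes were 32 named genes, and all 32 were present in both count tables, which together hold 26041 gene symbols. They were followed in single Eomes-tdTomato+ cells from the testis, sorted by the fluorescence of a reporter knocked into Eomes, a T-box transcription factor gene. The mice were 4 wk old, carried the Eomes-tdTomato knockin allele in every group (the protocol gives this allele, while the strain label, the same for all samples, names an Eomes allele with icre/ERT2 on B6N.Cg), and were either Plzf +/+ or Plzf lu/lu, where lu is a mutant allele of Plzf (symbol Zbtb16), a transcription factor of undifferentiated spermatogonia. The 1249 cells came from 4 plates and formed 5 libraries, of which 3 were Plzf +/+ (plates 1, 2 and 4, 897 cells) and 2 were Plzf lu/lu (plates 3 and 4, 352 cells). The labels do not tie the libraries to animals, so each p-value measures only the spread between these libraries.

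piRNAs are small RNAs of the germ line that guide PIWI proteins to the transcripts of transposons. Long precursor RNAs are cut and trimmed at the surface of mitochondria and in germ granules, where Tudor proteins bind methylated arginines of the PIWI proteins and hold the machinery together. In the testis an early set of piRNAs serves transposon silencing in fetal and newborn germ cells, and a far more abundant set appears at the pachytene stage of meiosis under the control of the transcription factor A-MYB. Chromatin silencing of retroelements by TRIM28, SETDB1 and MORC1 works alongside this pathway.

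The libraries held between 254514 and 2608702 UMIs (unique molecular identifiers, each a counted transcript molecule), with a median of 5942 UMIs per cell. The mutated gene, Zbtb16, stood at 75.8, 51.1 and 71.4 CPM (UMIs of the gene per 1000000 UMIs of the library) in Plzf +/+ plates 1, 2 and 4 and at 18.1 and 11.9 in Plzf lu/lu plates 3 and 4. Pairs of libraries from different plates shared between 31 and 271 cell barcodes, since every plate used the same set, and the libraries of plate 4 shared 0. In all, 5 Plzf +/+ cells of plate 4 lay in wells that the labels give to Plzf lu/lu. UMIs of each member were summed per library, or per library and cell class, and edgeR's quasi-likelihood test was run on all genes with Benjamini-Hochberg adjustment and a threshold of 0.05. The 32 members took 0.427% of all UMIs, and in cells thinned to 2000 UMIs a median of 7 members was detected per cell.

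The cells were first compared by Ldhc, which codes for the lactate dehydrogenase of meiotic and later germ cells. A cell with at least 5 Ldhc UMIs was called Ldhc-rich, which gave 159 Ldhc-rich and 1090 other cells, with 17 cells at 4 UMIs and 11 at 5 UMIs beside the limit. The comparison asked how the machinery differs between cells with at least 5 UMIs of a meiotic transcript and the rest of the sorted cells, of which 770 held 0 Ldhc UMIs and the others 1 to 4. It used 4 libraries, because the Plzf lu/lu library of plate 4 held only 4 Ldhc-rich cells. Of the 32 members, 8 (25%) were higher and 12 (37.5%) were lower in Ldhc-rich cells, where 30.7% of all genes tested were higher and 22.4% were lower. Tdrd6 and Mybl1, among the 8, passed the count filter only through the Ldhc-rich cells, and without them 6 of 30 were higher. The median log2 fold change was -0.15 over the members and -0.10 over all 11443 genes tested. The share of lower genes rested in part on the scaling, since without TMM factors the split over all genes turned from 3518 higher and 2561 lower to 2939 higher and 4778 lower, the median of all genes moved to -0.43, and among the members 8 were higher and 16 lower. The number of lower genes also fell, to 1354 in DESeq2 and to 1372 without Plzf +/+ plate 4. In these fits 8 and 7 members were higher and 9 were lower in each. Levels in Ldhc-rich and other cells did not overlap between libraries for 19 members, against 42.8% of all genes.

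**Figure D1:**
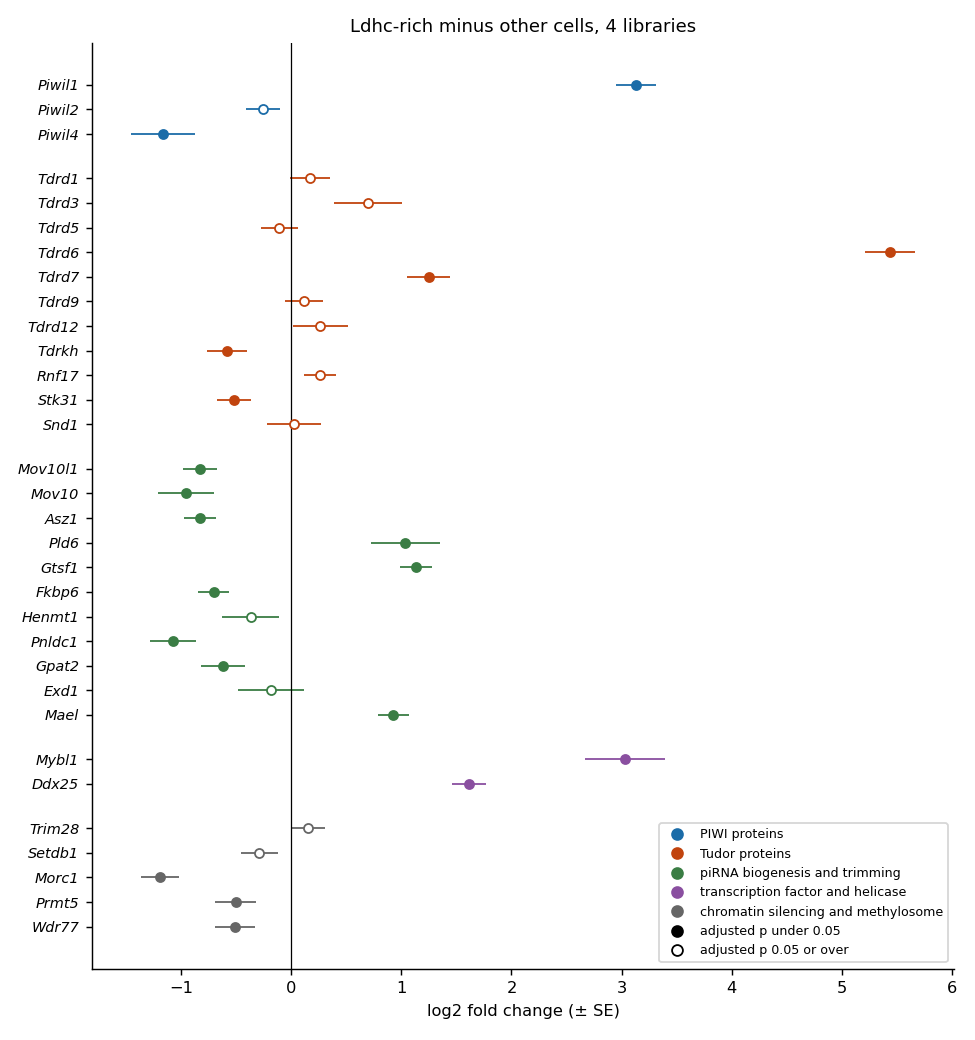
log2 fold change of each member between Ldhc-rich and other cells (x axis, points with standard error, 4 libraries), grouped by role along the y axis, with filled points for an adjusted p under 0.05. Tdrd6, Piwil1 and Mybl1 lie farthest to the right, at 5.43, 3.13 and 3.03, and the members with negative values reach no lower than -1.19.

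Among the PIWI proteins the members went in opposite directions. Piwil1 (chr5:128736071-128755474, GRCm38) codes for MIWI, the partner of pachytene piRNAs, and stood at 83.4, 218 and 182 CPM in the Ldhc-rich cells of Plzf +/+ plates 1, 2 and 4 and at 336 in those of Plzf lu/lu plate 3. The other cells of the same libraries held 15.3, 21.5, 22.6 and 32.9 CPM. Every Ldhc-rich value lay above every value of the other cells, and the fold was 8.75 (log2 fold change 3.13, SE 0.18, edgeR adjusted p = 1.26e-16). Piwil4, which codes for MIWI2, the nuclear PIWI protein of fetal germ cells, moved the other way, with 10.4, 37.9, 17.1 and 13.1 CPM in Ldhc-rich cells against 42.7, 45.9, 43.8 and 57.7 in the others, a level 2.24-fold lower (log2 fold change -1.17, SE 0.29, edgeR adjusted p = 9.41e-04). It rested on 2, 27, 9 and 7 UMIs in the Ldhc-rich sums. The call was lost with cells thinned to 2000 UMIs (log2 fold change -0.86, edgeR adjusted p = 0.336) and among cells under 15000 UMIs (-0.71, edgeR adjusted p = 0.12). Piwil2, which codes for MILI, averaged 159 ± 14.1 CPM in Ldhc-rich and 190 ± 9.93 in other cells (SD, n = 4), a log2 fold change of -0.26 (SE 0.15) that did not pass (edgeR adjusted p = 0.154), although each library's value was the smaller in its Ldhc-rich cells.

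Of the 11 Tudor proteins, 2 rose, 2 fell and 7 did not pass, where 30.7% of all genes were higher and 22.4% lower. Tdrd6 (chr17:43615334-43631846) codes for a large scaffold of the chromatoid body, the germ granule of round spermatids, and its difference was the widest of the members. It entered the test through its counts in Ldhc-rich cells, since it was below the count filter in the fits without them, and so had to differ. It was counted in 7, 8, 7 and 9 UMIs over the other cells of the 4 libraries, which is 3.25, 4.53, 4.65 and 4.06 CPM, and rose to 104, 247, 237 and 159 CPM in Ldhc-rich cells. The levels were separate in every library, and with that limit the fold was 43.3 (log2 fold change 5.43, SE 0.23, edgeR adjusted p = 1.41e-20). Tdrd7, which codes for another chromatoid body protein, rose 2.37-fold (log2 fold change 1.25, SE 0.20, edgeR adjusted p = 2.14e-06), from 50.2, 52.1, 43.8 and 59.1 to 46.9, 136, 161 and 129 CPM. Plate 1 did not share this difference, since its Ldhc-rich sum held only 9 Tdrd7 UMIs and lay just under its other cells.

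Tdrkh, the mitochondrial anchor that brings PIWI proteins to the trimming enzyme, fell from 114 ± 8.0 to 72.3 ± 25.8 CPM (SD, n = 4, log2 fold change -0.58, SE 0.18, edgeR adjusted p = 0.00716). Stk31, which joins a Tudor domain to a kinase domain, fell from 217 ± 28.5 to 150 ± 38.6 (log2 fold change -0.52, SE 0.15, edgeR adjusted p = 0.00497). Both were lower in the Ldhc-rich cells of every library. Tdrd1, Tdrd3, Tdrd5, Tdrd9, Tdrd12, Rnf17 and Snd1 had log2 fold changes between -0.11 and 0.70 and adjusted p-values from 0.0583 for Tdrd3 upward. Tdrd1, the MILI partner of the granules between mitochondria, kept 102 ± 28.5 CPM beside 94.0 ± 11.6 in other cells, a difference within the spread of the libraries.

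**Figure D2:**
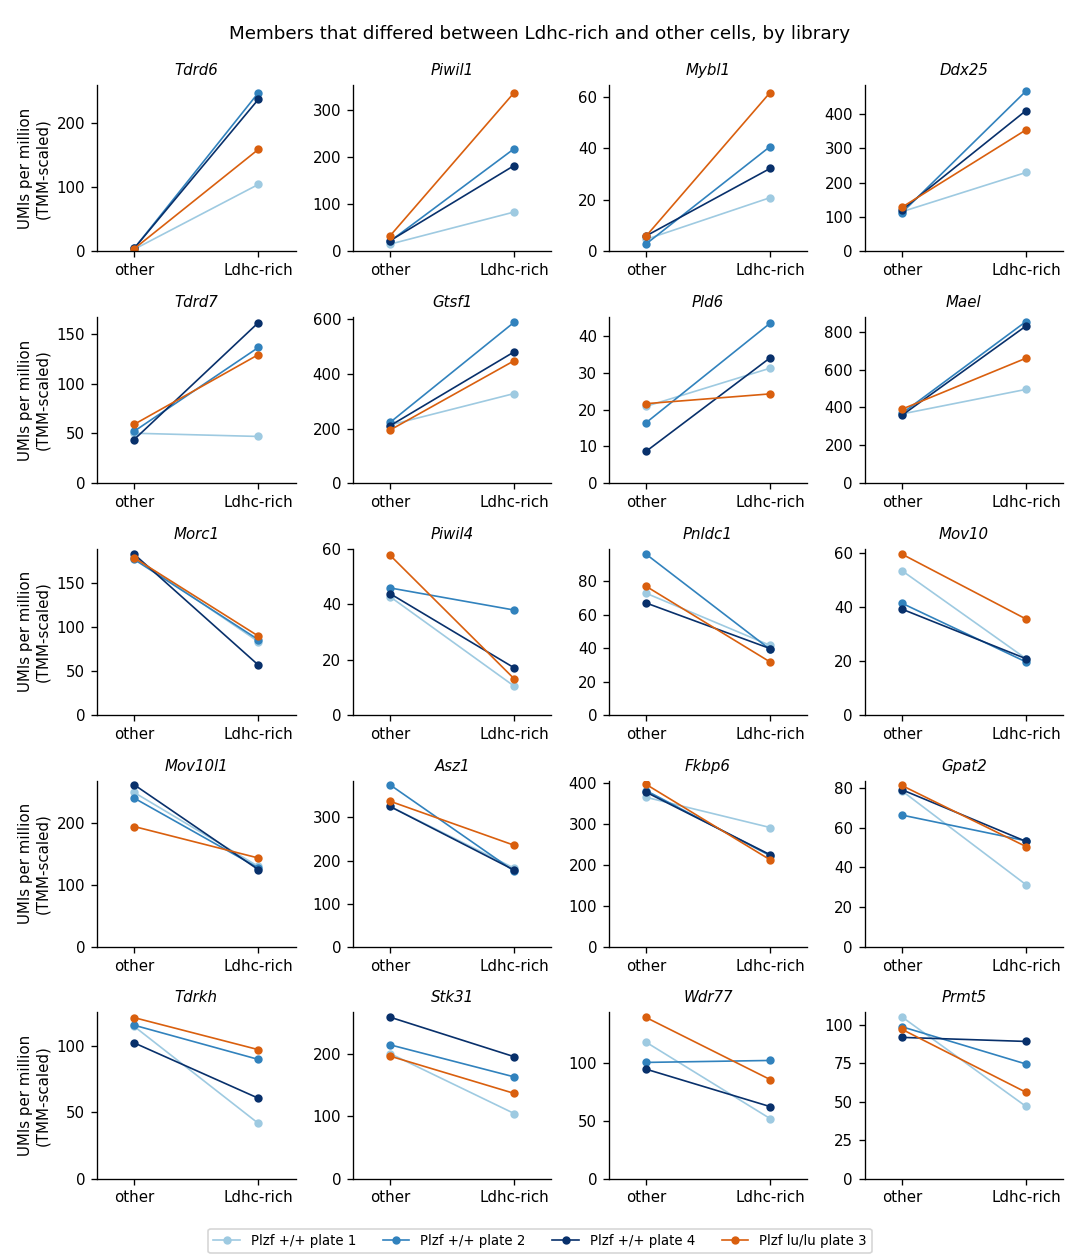
TMM-scaled CPM (y axis, from 0) of the 20 members that passed the test, in the other and the Ldhc-rich cells (x axis) of 4 libraries, each line joining both classes of a library. All lines point the same way for 18 of the 20 members, the exceptions being Tdrd7 in plate 1 and Wdr77 in plate 2.

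Among the 11 genes of piRNA biogenesis and trimming, 3 rose and 6 fell, beside the same 30.7% and 22.4% of all genes. Gtsf1, which codes for a small zinc finger protein that helps PIWI proteins cut their targets, rose from 213, 223, 211 and 195 to 328, 590, 481 and 449 CPM (2.20-fold, log2 fold change 1.14, SE 0.14, edgeR adjusted p = 2.51e-08). Mael, which codes for Maelstrom, needed for transposon silencing in the male germ line, rose from 366, 368, 358 and 390 to 495, 854, 830 and 660 (1.90-fold, log2 fold change 0.93, SE 0.14, edgeR adjusted p = 1.13e-06). Both genes were also well represented in the other cells, and plate 1 had the smallest rise in each. Pld6, the mitochondrial nuclease that cuts piRNA precursors, rose 2.05-fold on few molecules, with 6, 31, 18 and 13 UMIs in the Ldhc-rich sums (log2 fold change 1.04, SE 0.31, edgeR adjusted p = 0.00606).

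The genes that fell act at several steps of the same route. Asz1, an outer mitochondrial membrane protein of the granules, fell from 326, 376, 326 and 338 to 182, 176, 178 and 236 CPM (1.78-fold lower, log2 fold change -0.83, SE 0.15, edgeR adjusted p = 1.28e-05). Mov10l1, the helicase that feeds precursors into processing, fell from 250, 241, 262 and 195 to 130, 128, 125 and 144 (1.78-fold lower, log2 fold change -0.83, SE 0.16, edgeR adjusted p = 3.66e-05). In both genes the Ldhc-rich cells of all 4 libraries lay below all of the other cells. Fkbp6, a co-chaperone of PIWI loading, was 1.63-fold lower, at 292, 223, 226 and 213 CPM against 366 to 398 in the other cells (log2 fold change -0.71, SE 0.14, edgeR adjusted p = 8.80e-05). Pnldc1, the exonuclease that trims piRNA ends, was 2.11-fold lower (log2 fold change -1.07, SE 0.21, edgeR adjusted p = 4.98e-05), and Mov10, a helicase that restricts retroelements, was 1.94-fold lower (log2 fold change -0.96, SE 0.25, edgeR adjusted p = 0.00174). Gpat2, a mitochondrial acyltransferase family protein needed for piRNA production, was 1.53-fold lower (log2 fold change -0.62, SE 0.20, edgeR adjusted p = 0.00946). In the Ldhc-rich sums Pnldc1 had 8, 28, 21 and 17 UMIs, Mov10 4, 14, 11 and 19 and Gpat2 6, 38, 28 and 27. Henmt1, which methylates piRNA ends, and Exd1, a partner of TDRD12, had log2 fold changes of -0.37 and -0.18 and did not pass.

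Mybl1 and Ddx25 both rose. Mybl1 (chr1:9667407-9700439) codes for A-MYB, the activator of pachytene piRNA precursors and of several genes of the pathway, and went from 4.64, 2.83, 5.98 and 5.86 CPM in other cells to 20.9, 40.7, 32.2 and 61.7 in Ldhc-rich cells. These are small counts, with 4, 29, 17 and 33 UMIs in the Ldhc-rich sums, and Mybl1, like Tdrd6, passed the count filter only through them, so that its fold and p-value carry the same limit (8.16-fold, log2 fold change 3.03, SE 0.36, edgeR adjusted p = 9.27e-09). Ddx25, which codes for a testis helicase of the chromatoid body, rose from 115, 112, 120 and 128 to 229, 466, 409 and 353 (3.06-fold, log2 fold change 1.61, SE 0.16, edgeR adjusted p = 7.58e-11).

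Of the 5 chromatin silencing and methylosome genes, 3 fell and none rose, with 22.4% of all genes lower and 30.7% higher. Morc1 (chr16:48431237-48630905), a germ-line ATPase needed for retroelement silencing, was almost the same in the other cells of every library, at 179, 177, 183 and 179 CPM, and was 83.4, 85.6, 56.8 and 89.7 in Ldhc-rich cells (2.29-fold lower, log2 fold change -1.19, SE 0.17, edgeR adjusted p = 3.59e-07). Prmt5, the enzyme that methylates PIWI arginines, and Wdr77, its obligate partner, were 1.42-fold lower each (log2 fold changes -0.50 and -0.51, edgeR adjusted p = 0.0222 and 0.0186). Trim28 and Setdb1, which code for the corepressor of KRAB zinc finger proteins and its histone methyltransferase, had log2 fold changes of 0.15 and -0.29 and did not pass (edgeR adjusted p = 0.391 and 0.140). Without TMM factors Setdb1, Piwil2, Tdrd5 and Henmt1 also passed as lower.

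Cell type markers moved with the Ldhc classes. The summed lists are given in CPM without TMM factors, which makes falls larger and rises smaller here than TMM-scaled levels would. The summed spermatid list ran from 530 to 1075 CPM in other cells and from 9858 to 19540 in Ldhc-rich cells, with 13 of 13 genes higher, and the spermatocyte list (without Piwil1 and Ldhc) from 944 to 1035 and from 1266 to 2015, with 6 of 8 higher. The undifferentiated spermatogonia list ran from 744 to 1066 and from 393 to 594, with 7 of 9 tested genes lower, and Gfra1 itself averaged 210 ± 54.1 and 123 ± 33.3 (TMM-scaled, SD, n = 4). The sum of Dazl and Ddx4, the germ cell list, ran from 1346 to 1739 and from 899 to 1019, with Dazl lower and Ddx4 higher (log2 fold change 0.42, edgeR adjusted p = 0.0116). The differentiating spermatogonia list ran from 223 to 438 and from 546 to 683, with 1 of 4 tested genes higher and 2 lower. The Sertoli cell list ran from 402 to 884 in other cells and from 521 to 2737 in Ldhc-rich cells, with 5 of 6 tested genes higher. Of the 159 Ldhc-rich cells, 91 held a Gfra1 UMI and 36 drew at least 1% of their UMIs from the spermatid list. The part of these markers in the members' differences was not tested, and a change in the mix of cells cannot be told apart from a change within cells in sums of this kind. Without the cells that held spermatid transcripts, 8 members were higher and 11 lower, against 27.2% and 20.6% of all genes, Wdr77 being the call that was lost (edgeR adjusted p = 0.0527).

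The differences followed the number of Ldhc UMIs in a cell, at different points for different members. Cells were put in 6 groups by Ldhc UMIs over all libraries. Piwil1 stood at 26.2 (exact Poisson interval 21.8 to 31.1, for counting error only) CPM in the 770 cells with 0 Ldhc UMIs, at 30.5 (14 to 57.9) in the 44 cells with 5 to 9, at 62.4 (37.0 to 98.6) in the 37 cells with 10 to 19 and at 253 (230 to 278) in the 78 cells with 20 or more. Mael stayed between 388 and 421 in the groups below 20 Ldhc UMIs and reached 755 (715 to 798) above. Tdrd6 stood at 2.68 (1.43 to 4.58) in cells with 0 Ldhc UMIs, 19.5 (11.1 to 31.6) in cells with 2 to 4 and 231 (209 to 255) in cells with 20 or more. Mybl1 stood at 3.91 (2.36 to 6.11), 12.2 (5.84 to 22.4) and 39.1 (30.3 to 49.6) in the same groups, the first and second intervals overlapping. Asz1 stood at 382, 406, 326, 326, 229 and 129 from the group with 0 to that with 20 or more Ldhc UMIs, and Morc1 at 202, 195, 183, 159, 125 and 44.9.

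**Figure D3:**
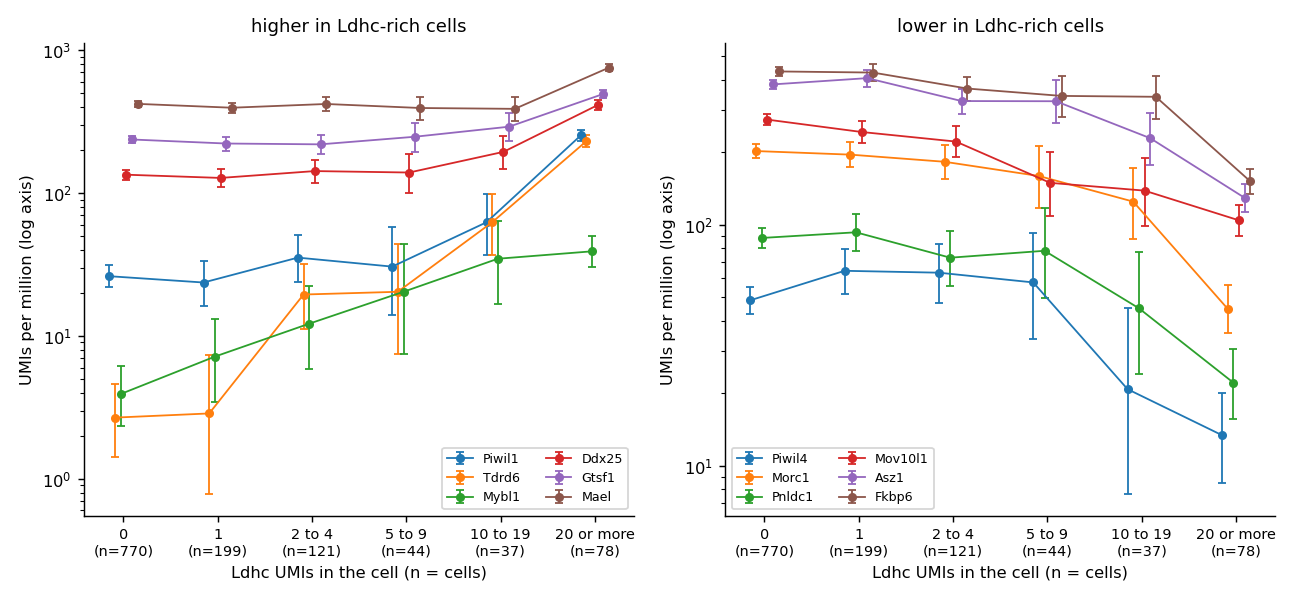
CPM on a log axis (y) of 6 members that were higher (left) and 6 that were lower (right) in Ldhc-rich cells, in cells grouped by their Ldhc UMIs (x), pooled over the 5 libraries, with exact 95% Poisson intervals for counting error only. At 20 or more Ldhc UMIs Piwil1 reaches 253 and Morc1 is down to 44.9, while Tdrd6 already steps from 2.86 to 19.5 at 2 to 4 Ldhc UMIs.

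Depth went with these groups. The 78 cells with 20 or more Ldhc UMIs had a median of 16703 UMIs, against 5454 in cells with 0, and Ldhc-rich cells as a whole had a median of 10170 against 5584 in the others. With every cell thinned to 2000 UMIs, 5 members remained higher (Piwil1, Ddx25, Gtsf1 and Mael, with log2 fold changes of 2.06, 1.10, 0.64 and 0.45, and Tdrd6, at 4.76 with the limit set by the count filter) and 4 remained lower (Mov10l1, Asz1, Stk31 and Fkbp6, at -0.91, -0.75, -0.66 and -0.64), where 18.7% of all genes were higher and 6.77% lower. Mybl1 and Pld6 were below the count filter there. Among the calls lost on thinning, Tdrkh at -0.83 (edgeR adjusted p = 0.0693), Mov10 at -0.86 (0.318) and Wdr77 at -0.67 (0.159) were about as large as before or larger. The other lost folds were smaller than before. Tdrd7 was at 0.93 (edgeR adjusted p = 0.0650) and Piwil4 at -0.86 (0.336). Pnldc1 was at -0.62 (edgeR adjusted p = 0.265), Gpat2 at -0.52 (0.417), Morc1 at -0.41 (0.257) and Prmt5 at -0.35 (0.518). Among cells under 15000 UMIs, a limit chosen after seeing the data, 5 members were tested and higher (Piwil1, Ddx25, Tdrd7, Gtsf1 and Mael) and 6 lower (Mov10l1, Gpat2, Asz1, Tdrkh, Morc1 and Fkbp6), against 17% and 6.69% of all genes. Tdrd6 and Mybl1 were below the count filter in that fit, and the log2 fold change of Piwil1 was then 1.85 and that of Mael 0.40. All 20 called members kept their sign in every alternative in which they were tested, and Piwil1, Mael, Mov10l1, Asz1, Gtsf1, Fkbp6 and Ddx25 passed in all 20 alternatives. Tdrd6 and Mybl1 were tested in 19 and 17 of them and passed there, but they passed the count filter only through the Ldhc-rich cells, so these calls say nothing of stability.

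The share of cells with a UMI was read at 2000 UMIs per cell and set beside 40 cells that carried somatic markers with at most 1 UMI of Dazl and Ddx4, as the level that free RNA gives. Tdrd6 was detected in 6 of 595 Gfra1-positive and 3 of 403 Gfra1-negative cells that were not Ldhc-rich, and in 19.3% (exact binomial interval 13.2 to 26.7, for counting error only) of 145 Ldhc-rich cells. Asz1 was detected in 53.5% (49.3 to 57.5) and 52.1% (47.1 to 57.1) of the first classes and in 35.2% (27.4 to 43.5) of Ldhc-rich cells. Mov10l1 went from 40.7% and 38.2% to 20% in the same order. Of the 40 somatic-marker cells 12 were themselves Ldhc-rich, so the level of free RNA was read from the other 28, of which 12 were deep enough for thinning. Among those 12 cells Ddx25 was detected in 2 (16.7%, interval 2.09 to 48.4), Mael in 3 (25%, 5.49 to 57.2) and Piwil1 in 1 (8.33%, 0.211 to 38.5). Tdrd6, Asz1 and Mov10l1 were detected in 0 of the 12, which allows a share of up to 25%. The Ldhc-rich shares of Ddx25 (33.8%), Piwil1 (14.5%), Tdrd6 and Mov10l1 lay within what these few cells allow, so that a difference from free RNA was not detectable in the shares of these genes at this number of cells. Choosing the 28 by low Ldhc can itself lower transcripts that go with Ldhc. Over all 40 somatic-marker cells, of which 24 were deep enough, Ddx25 was detected in 12 (50%) and Piwil1 in 4 (16.7%). Without thinning, Tdrd6 was detected in 50.3% of 147 Ldhc-rich cells (median 10938 UMIs) and in 2 of the 28 (median 1899 UMIs), at unequal depth. In the 28 cells the members took 0.107% of UMIs, against 0.434% in Gfra1-positive cells that were not Ldhc-rich, with 2 Piwil1, 2 Ddx25, 7 Mael and 0 Piwil4 UMIs. As levels, Ddx25 stood at 28.8 CPM (exact Poisson interval 3.49 to 104) in the 28 cells and at 351 (327 to 376) in Ldhc-rich cells, and Piwil1 at 28.8 (3.49 to 104) and 203 (185 to 222), so that these intervals did not overlap. Both genes rise with Ldhc, so this gap can be partly set by the choice of the 28, and the 2 Piwil1 UMIs came from 1 cell. Over all 40 somatic-marker cells Ddx25 stood at 167 (103 to 255) and Piwil1 at 63.5 (27.4 to 125), intervals still below those of Ldhc-rich cells.

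**Figure D4:**
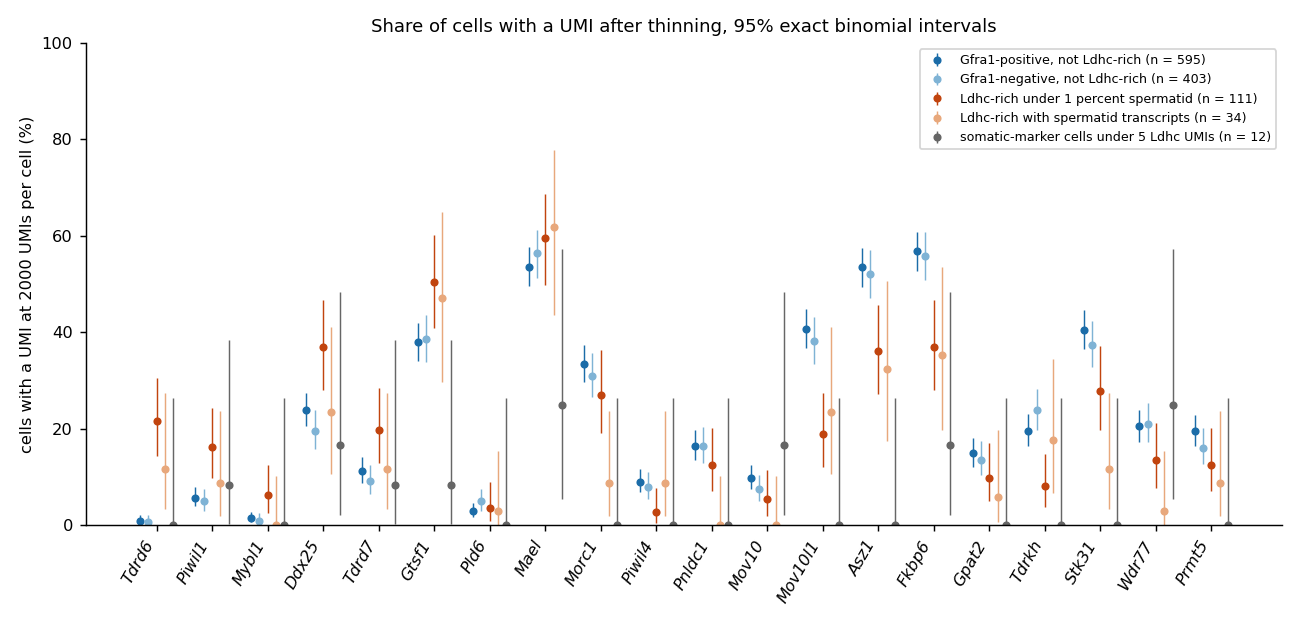
Percentage of cells with at least 1 UMI of each of the 20 called members after thinning to 2000 UMIs (y axis) in 5 classes of cells (colours, n in the key), with exact 95% binomial intervals for counting error only. Tdrd6 is at or under 1.01% in both classes of germ cells that are not Ldhc-rich, and the 12 somatic-marker cells under 5 Ldhc UMIs have intervals wide enough to reach 48.4% for Ddx25.

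Ldhc-rich cells with and without spermatid transcripts were also set side by side. Pooled over libraries and without somatic-marker cells, the 34 Ldhc-rich cells with spermatid transcripts held 138 Piwil1 CPM (exact Poisson interval 110 to 172) against 226 (203 to 250) in the 113 without. Their level of Ddx25 was 256 (216 to 301) against 384 (354 to 414), and that of Mael 569 (509 to 634) against 698 (658 to 739). The members together took 0.32% of UMIs in the first and 0.445% in the second. These are pooled cells with no replicate test, and they can be set beside the other cells, where Piwil1 was 26.9 in Gfra1-positive and 26.4 in Gfra1-negative cells.

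The windows of 250 bases before the RefSeq start (GRCm38.p6) were read for the 26 members with an entry, since members that moved together could share letters there. Tdrd6, Mybl1, Piwil2, Rnf17, Pnldc1 and Morc1 had no entry. TAACNG and CAACNG, forms of the site that MYB proteins bind, and CACGTG, the E-box, were searched on both strands. A TAACNG or CAACNG was found in 10 of the 26 genes, 3 of the 6 that were higher in Ldhc-rich cells and 5 of the 10 that were lower, and in 46.5% of all 27025 genes. CACGTG was found in 8 of the 26 members (Fkbp6, Mael, Mov10l1, Piwil1, Pld6, Stk31, Tdrd1 and Tdrd9) and in 6.86% of all genes, with 3 of the members higher and 3 lower in Ldhc-rich cells. Piwil1 held CACGTG from positions -179 and -154, and, on the reverse strand, TAACNG from -139 and -64 and CAACNG from -73. The windows of 2 members that rose and 2 that fell are printed on the strand of the gene, those with the smallest adjusted p-values among called members with a single entry and no base inside the gene itself, with the searched letters in capitals:
Ddx25 (higher, chr9:35558471-35558720, minus strand): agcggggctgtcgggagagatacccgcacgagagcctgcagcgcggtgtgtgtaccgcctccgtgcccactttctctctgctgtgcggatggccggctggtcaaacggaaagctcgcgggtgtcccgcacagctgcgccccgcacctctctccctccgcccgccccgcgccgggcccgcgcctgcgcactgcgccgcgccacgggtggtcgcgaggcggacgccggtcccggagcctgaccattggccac
Mael (higher, chr1:166238745-166238994, minus strand): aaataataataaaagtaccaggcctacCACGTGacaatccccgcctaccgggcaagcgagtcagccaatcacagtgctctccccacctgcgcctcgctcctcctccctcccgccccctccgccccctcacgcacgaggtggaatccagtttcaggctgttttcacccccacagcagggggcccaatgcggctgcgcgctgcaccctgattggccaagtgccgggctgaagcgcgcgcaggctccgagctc
Asz1 (lower, chr6:18109062-18109311, minus strand): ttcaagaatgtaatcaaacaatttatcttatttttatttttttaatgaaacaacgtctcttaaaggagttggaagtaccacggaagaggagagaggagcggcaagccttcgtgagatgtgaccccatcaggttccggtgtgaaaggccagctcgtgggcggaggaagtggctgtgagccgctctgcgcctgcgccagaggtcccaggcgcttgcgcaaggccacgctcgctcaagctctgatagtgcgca
Wdr77 (lower, chr3:105959248-105959497, plus strand): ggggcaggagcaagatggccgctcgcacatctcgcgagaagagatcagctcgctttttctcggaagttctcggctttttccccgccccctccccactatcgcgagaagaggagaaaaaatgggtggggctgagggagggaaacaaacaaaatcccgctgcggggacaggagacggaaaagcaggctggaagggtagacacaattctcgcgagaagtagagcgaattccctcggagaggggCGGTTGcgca

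Other genes listed for the pathway were counted in the same fit. Of 12 further genes listed for the piRNA pathway 9 were in the tables and 7 were tested, and 5 rose and 2 fell in Ldhc-rich cells, with a median log2 fold change of 0.49, against 30.7% higher, 22.4% lower and a median of -0.10 over all genes. The 5 include Tdrp, for which the sources used here give no piRNA role. Tdrp, a testis nuclear protein, and Kif17, a kinesin of male germ cells, rose 4.79-fold and 4.61-fold (log2 fold changes 2.26, SE 0.33, and 2.21, SE 0.37, edgeR adjusted p = 4.08e-07 and 6.45e-06). Tcfl5, a transcription factor of spermatocytes, rose 2.44-fold (log2 fold change 1.28, SE 0.18, edgeR adjusted p = 1.25e-07), Hsp90aa1 1.41-fold, and Tex19.1, which restrains retrotransposons in germ cells, fell (log2 fold change -0.90, SE 0.16, edgeR adjusted p = 9.68e-06). Of 18 tested genes of chromatin and other retroelement silencing, 2 rose and 7 fell, with a median of -0.36. Daxx, a histone chaperone, rose (log2 fold change 1.23, SE 0.20, edgeR adjusted p = 4.41e-06). Samhd1, Suv39h1, Hells and Cbx1 fell, by 1.12, 0.81, 0.74 and 0.72 on the log2 scale (edgeR adjusted p = 1.32e-06, 0.000143, 5.75e-05 and 0.00205).

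The cells were next compared by Gfra1, the GDNF receptor subunit that marks undifferentiated spermatogonia including stem cells, to ask whether the machinery differs with that marker. A cell with at least 1 Gfra1 UMI was called Gfra1-positive, which gave 700 positive and 549 negative cells over all 5 libraries. None of the 32 members passed in edgeR, where 0.207% of all 10603 genes did, and none passed in DESeq2. At an unadjusted p under 0.05, edgeR gave 1 member (Tdrd1) and DESeq2 gave 0, against 8.83% and 6.42% of all genes. The median log2 fold change was -0.07 over the members and -0.02 over all genes. The positive cells were the deeper ones, with a median of 6991 UMIs against 4558, and the summed spermatid list was lower in the positive cells of all 5 libraries (456 to 6712 CPM against 2980 to 15020).

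Piwil2 stood at 184, 177, 192, 179 and 219 CPM in the Gfra1-positive cells of Plzf +/+ plates 1, 2 and 4 and Plzf lu/lu plates 3 and 4, and at 243, 214, 196, 197 and 202 in the negative cells, with overlapping ranges. Piwil4 ran from 39.9 to 50.2 in positive and from 33.1 to 55.6 in negative cells. Tdrd1 was lower in the positive cells of all 5 libraries, at 105, 100, 88, 84 and 62.6 against 133, 120, 97.9, 105 and 105, a log2 fold change of -0.30 (SE 0.13) that did not pass (edgeR adjusted p = 0.519). Tdrd9 and Rnf17 were also lower in all 5, with log2 fold changes of -0.16 and -0.22 (edgeR adjusted p = 0.827 and 0.678). Piwil1 and Tdrd6, the members that differed most with Ldhc, varied more between libraries than between the Gfra1 classes, Piwil1 from 24 to 143 in negative and from 21.7 to 90.2 in positive cells. No member passed either when Ldhc-rich cells were left out.

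Plzf +/+ and Plzf lu/lu libraries were compared last. None of the 32 members passed in edgeR, where 0.816% of all 13728 genes did, and none in DESeq2, and each tool gave the same 2 members, Tdrd5 and Exd1, at an unadjusted p under 0.05, a level that 14.2% of all genes reached in edgeR and 6.75% in DESeq2. The median log2 fold change was 0.07 over the members and 0.00 over all genes. Exd1 was lower in both Plzf lu/lu libraries, at 15.4 and 11.9 CPM against 38.4, 30.8 and 26.3 in Plzf +/+ (log2 fold change -1.12, SE 0.31, edgeR adjusted p = 0.161). Tdrd5, which codes for a Tudor protein of germ granules needed for pachytene piRNAs, was higher, at 151 and 179 against 105, 117 and 105 (log2 fold change 0.58, SE 0.16, edgeR adjusted p = 0.158). Levels did not overlap between the genotypes for 9 members, against 34.4% of all genes. Plates 1 to 3 held a single genotype each, so there the plate and the genotype cannot be told apart. Within plate 4, with 1 library per genotype and no test, Exd1 was 26.3 in Plzf +/+ and 11.9 in Plzf lu/lu, the latter on 3 UMIs, and Tdrd5 was 105 and 179. The summed Sertoli cell list ran from 778 to 1290 CPM in Plzf lu/lu and from 502 to 586 in Plzf +/+, with 4 of 8 tested genes higher. The undifferentiated spermatogonia list ran from 578 to 670 in Plzf lu/lu and from 826 to 847 in Plzf +/+, with 1 of 10 tested genes higher and 1 lower, and Dazl and Ddx4 together from 1582 to 1638 and from 1210 to 1367. The part of these lists in the members' values was not tested.

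Plate 1, with 17 Ldhc-rich of 317 cells, held the lowest Piwil1 level (22.6 CPM against 65.9 to 99.6 in the other libraries). Without Ldhc-rich cells, Piwil1, Tdrd5 and Exd1 passed, where 14.9% of all genes did. Piwil1 then stood at 17.1, 25.0 and 24.8 unscaled CPM in Plzf +/+ and at 35.8 and 54.3 in Plzf lu/lu, on 33, 38, 34, 73 and 11 UMIs (1.82-fold, log2 fold change 0.86, SE 0.27, edgeR adjusted p = 0.0287). Tdrd5 stood at 111, 129 and 116 against 154 and 202 (1.43-fold, log2 fold change 0.52, SE 0.15, edgeR adjusted p = 0.0162). Exd1 stood at 39.8, 34.2 and 30.6 against 16.2 and 14.8, the last on 3 UMIs (2.12-fold lower, log2 fold change -1.09, SE 0.29, edgeR adjusted p = 0.0101). In Gfra1-positive cells that were not Ldhc-rich, where 11.6% of all genes passed, Tdrd5 passed (log2 fold change 0.56, edgeR adjusted p = 0.028), and Piwil1 kept a log2 fold change of 0.84 without passing (edgeR adjusted p = 0.0858). No other member tested passed in either restricted fit, and Tdrd6 and Mybl1 were below the count filter in both.

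**Figure D5:**
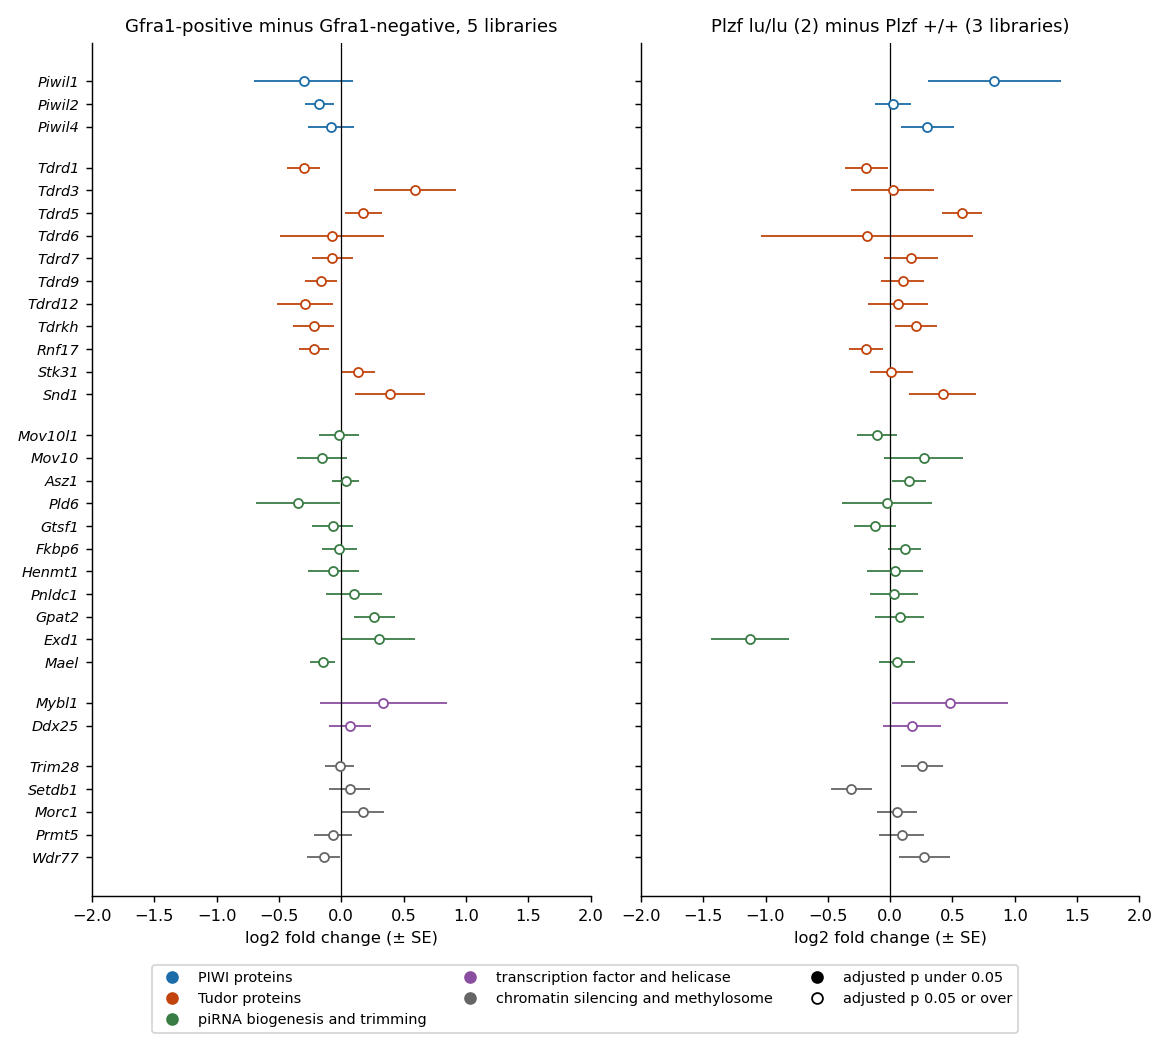
log2 fold change with standard error (x axis) of the 32 members (y axis, by role) between Gfra1-positive and Gfra1-negative cells of 5 libraries (left) and between 2 Plzf lu/lu and 3 Plzf +/+ libraries (right), all open because none passed. Exd1 lies farthest left between genotypes, at -1.12, and Piwil1 farthest right, at 0.84 with a standard error of 0.54.

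Whether the classes differed by genotype was tested as an interaction. For Gfra1 status none of the 32 members passed, 4 had an unadjusted p under 0.05 (Piwil1, Mov10l1, Fkbp6 and Setdb1), as did 7.93% of all genes, and the smallest adjusted p was 0.482, for Piwil1 (difference of the log2 fold changes, Plzf lu/lu minus Plzf +/+, -1.55, SE 0.53). For the Ldhc classes none passed and 0 had an unadjusted p under 0.05, against 7.17% of all genes, with a single Plzf lu/lu library in that fit. The interaction was run in edgeR only.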

How the data were processed

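Cells were flow sorted into 384 well plates, barcoded with Drop-Seq primers and sequenced. The deposited counts are UMI counts per gene and cell, in a table per genotype, made by the authors. The submitters' processing notes name bcl2fastq 2.18.0.12, Picard 2.9.3, STAR 2.5.4a and GRCm38, and how each was used is not given in the sources used here. Only the ends of transcripts were amplified, and levels are not compared between genes.

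The members, gene lists and tests were chosen with earlier results of these data known. All 32 members are named, by role, and of the further lists at most 5 called genes with the largest change. Library and genotype of a cell came from its table and name suffix. No cell was filtered and no doublet caller was run. Counts were summed per library, or per library and class (classes with under 5 cells left out), filtered with filterByExpr, scaled with TMM and tested in edgeR 4.0.16 (R 4.3.3, robust glmQLFit, glmQLFTest, the library as a block for Gfra1 and Ldhc), with Benjamini-Hochberg adjustment over all genes tested. The gene that defined a class was not tested. Members' levels are TMM-scaled in these comparisons and unscaled CPM in the groups by Ldhc UMIs, which hold all cells, and in the other pooled classes, which leave out somatic-marker cells (at least 5 UMIs and 0.2% of UMIs from the somatic lists). The summed marker lists and the genotype levels without Ldhc-rich cells are also unscaled. In the Ldhc comparison the TMM factors ran from 1.09 to 1.16 in other cells and from 0.84 to 0.99 in Ldhc-rich cells. Thinning took 2000 UMIs per cell without replacement, leaving out 82 shallower cells. Intervals are exact, at 95%, and a count of 0 is given with the share that 3 counts would make. Alternatives were DESeq2 1.42.0, size factors, total UMIs, no count filter, each library left out, other cell sets and limits, no library block and a replicate block. The main edgeR fit of each comparison was run on counts simulated without library effects, and the interaction, DESeq2 and replicate block fits were not. Promoter windows are from RefSeq, GRCm38.p6.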

Additional observations from a re-analysis of the deposited data

Results flagged for a closer look

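Dixon's test was run on the members' levels over the 4 or 5 libraries of each Ldhc and Gfra1 class, 128 groups in all, and 10 had a library apart from the others, where chance alone marks about 1 in 20. Each class mixes both genotypes, and the Plzf lu/lu library of plate 4 holds few UMIs. In Gfra1-negative cells Tdrkh was 164 CPM in Plzf +/+ plate 2 (others 112 to 121), Asz1 was 256 in Plzf +/+ plate 4 (others 335 to 365) and Stk31 was 299 in Plzf lu/lu plate 4 (others 176 to 198). In Gfra1-positive cells of Plzf lu/lu plate 4, Tdrd12 was 23.5 on 3 UMIs (others 37.9 to 43.4) and Snd1 was 110 on 14 UMIs (others 30.2 to 43.6). In cells that were not Ldhc-rich, Tdrd12 was 29.5 in Plzf +/+ plate 2 (others 42.7 to 45.1). In Ldhc-rich cells of Plzf lu/lu plate 3, Mov10 was 35.5 (others 19.7 to 20.9) and Asz1 was 236 (others 176 to 182). In Ldhc-rich cells of Plzf +/+ plate 1, Fkbp6 was 292 (others 213 to 226) and Gpat2 was 31.3 on 6 UMIs (others 50.5 to 53.3). For Mov10, Asz1, Fkbp6 and Gpat2 these values lay below those of the other cells, as in the remaining libraries.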

How the results depend on the processing

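Between Ldhc-rich and other cells, 558 of 632 fold changes of single members under alternatives kept their direction and their side of the threshold, 36 no longer passed, 9 newly passed and 29 changed sign without passing in either fit. Thinned to 2000 UMIs per cell, 5 members were higher, 4 were lower and 1495 genes were called in all, against 8, 12 and 6079. With cells under 15000 UMIs these were 5, 6 and 2391. Over all genes 3967 were called without cells over 4 times the median UMIs and 3530 with Ldhc-rich cells limited to those with 0 Gfra1 UMIs. The last limit and that of 15000 UMIs were chosen after seeing the data, and the cause was not tested. Leaving out a library gave 7 to 8 members higher and 9 to 12 lower, and 4713 to 6536 genes called.

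Between genotypes, 421 of 506 member fold changes kept direction and side, 5 newly passed and 80 changed sign without passing in either fit. Over all genes 112 were called, against 583 with no count filter, 672 without cells over 4 times the median, 373 thinned, 1759 without Ldhc-rich cells and 1222 in Gfra1-positive cells that were not Ldhc-rich. These last fits gave 2 members higher and 1 lower, and 1 higher. Leaving out Plzf +/+ plate 1 gave 1387 of 13631 genes called and 1 member lower (Tdrd6, log2 fold change -0.78, edgeR adjusted p = 0.0477). Tdrd6 was below the count filter without Ldhc-rich cells, and in Plzf lu/lu plate 3 it had 85 UMIs in Ldhc-rich and 9 in other cells. The libraries of that fit held 57 of 303 and 40 of 277 (Plzf +/+) and 41 of 314 and 4 of 38 (Plzf lu/lu) Ldhc-rich cells, and the part of this was not tested. Without Plzf +/+ plate 2 or Plzf +/+ plate 4 the count over all genes was 1, with 0 members lower. Leaving out either Plzf lu/lu library leaves 1 in that group, so those counts are not given. With the number in the titles as a replicate block, 0 genes were called (973 at an unadjusted p under 0.05 in edgeR). Libraries that share a number had deviations that correlated at 0.022 and -0.007, and those that share plate 4 at 0.045. With 2 Plzf lu/lu libraries the deviations of that genotype mirror each other, so these values cannot decide whether the numbers pair the libraries.

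For Gfra1 status, 431 of 497 member fold changes kept direction and side, the other 66 changed sign without passing, and no member passed in any alternative. Over all genes 22 were called, against 55 in DESeq2, 266 with no count filter, 447 without cells over 4 times the median, 237 thinned, 37 in Plzf +/+ libraries, 659 without Ldhc-rich cells, 136 with at least 2 Gfra1 UMIs and 0 without the library block (612 at an unadjusted p under 0.05). Leaving out a library gave 3 to 128, with 128 without Plzf +/+ plate 2, 4 without Plzf lu/lu plate 3 and 3 without Plzf +/+ plate 1. Depth limits members with small sums. Among them, Mybl1, Pld6, Exd1, Tdrd3, Piwil4, Mov10 and Pnldc1 had between 2 and 33 UMIs per library in Ldhc-rich cells, and Gpat2 between 6 and 38.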
